A study of Mus musculus with 117 samples.

Results

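Chromatin states that the strains A/J and NOD/ShiLtJ had in common, and that the other 7 strains did not have, were described in mouse hepatocytes, which form most of the liver. The autosomes 1 to 19 were read in bins of 200 bp, and a bin was a member where A/J and NOD/ShiLtJ carried the same state and 129S1/SvImJ, C57BL/6J, CAST/EiJ, DBA/2J, NZO/HlLtJ, PWK/PhJ and WSB/EiJ all carried 1 other state. Of 12313718 autosomal bins, 42806 (0.348%) were members, which is 8561.2 kb in 18573 regions of adjacent bins. The members were chosen by the states themselves, so every state value on the autosomes below is a description with no test.

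The study took hepatocytes from female mice 12 weeks old of these 9 inbred strains. A/J and NOD/ShiLtJ form the pair described here, and the other 7 strains are the group it is set against. ChIP-seq libraries were made for H3K4me1, H3K4me3, H3K27ac and H3K27me3 from 3 mice per strain, with 1 input library per strain, 117 libraries in all. The deposited data are 1 segmentation per strain, in which each stretch of the genome carries 1 of 14 states, so the mice of a strain are combined, each strain gives 1 value, and the spread among mice is not known. The depth of sequencing is not known either.

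A chromatin state is a recurring combination of histone marks along the genome. H3K4me3 is known from active promoters, H3K4me1 from enhancers, H3K27ac from active promoters and enhancers, and H3K27me3 from regions silenced by Polycomb proteins. The mark content of the 14 states is not given in the sources used here, so a state is used as a name and is described by where it lies. State 14 was the widest state, at a median of 77.62% of autosomal bins in the 7 strains, and state 13 was the next, at 10.4%. State 3 lay at gene starts: of its bins common to all 9 strains, 88.5% were within 1 kb of the start of a protein-coding gene, or of either gene end where no start is listed. States 1, 8 and 9 lay near genes, with 11.9%, 2.54% and 2.05% of their common bins farther than 10 kb from a protein-coding gene, against 50.4% of all autosomal bins. Bins of state 9 were bordered by state 8 on 41.8% of their sides and by state 14 on 35.3%.

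The sequences below are the starts of 4 genes whose start bin was itself a member, 1 for each of 4 kinds of swap, and show the DNA that carried 1 state in the 7 strains and another in the pair. Each runs from 250 bases before to 50 bases after the start, taken from RefSeq on GRCm38.p6 and printed 5′ to 3′ on the strand of the gene, with CG dinucleotides in capitals. These are reference letters, and the strains' own alleles were not analysed here. The start of Lrrc37a, a leucine-rich repeat gene (chr11:103504959-103505258, minus strand), was in state 14 in the 7 strains and state 13 in the pair.
Lrrc37a: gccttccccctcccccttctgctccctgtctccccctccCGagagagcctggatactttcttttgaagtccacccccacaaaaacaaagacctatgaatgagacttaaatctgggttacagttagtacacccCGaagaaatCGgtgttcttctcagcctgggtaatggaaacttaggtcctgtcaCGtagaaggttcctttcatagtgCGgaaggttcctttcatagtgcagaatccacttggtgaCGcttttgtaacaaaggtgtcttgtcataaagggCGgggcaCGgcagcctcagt
The start of Kcna5, which encodes a voltage-gated potassium channel (chr6:126535506-126535805, minus strand), was in state 13 in the 7 and state 14 in the pair.
Kcna5: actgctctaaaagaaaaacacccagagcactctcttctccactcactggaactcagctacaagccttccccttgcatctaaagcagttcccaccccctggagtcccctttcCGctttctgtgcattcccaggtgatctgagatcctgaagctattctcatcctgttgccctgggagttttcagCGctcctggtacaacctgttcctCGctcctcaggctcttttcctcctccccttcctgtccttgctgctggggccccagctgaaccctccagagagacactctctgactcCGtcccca
The start of Mylpf, which encodes a myosin light chain of fast skeletal muscle (chr7:127211358-127211657, plus strand), was in state 14 in the 7 and state 9 in the pair.
Mylpf: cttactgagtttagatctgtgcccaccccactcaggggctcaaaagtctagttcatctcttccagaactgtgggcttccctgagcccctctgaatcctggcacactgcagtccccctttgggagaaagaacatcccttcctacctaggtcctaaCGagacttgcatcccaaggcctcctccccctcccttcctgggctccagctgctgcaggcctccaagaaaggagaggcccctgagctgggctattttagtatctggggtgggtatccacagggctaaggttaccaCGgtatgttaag
The start of Cd38, which encodes an enzyme on the cell surface that consumes NAD (chr5:43868559-43868858, plus strand), was in state 5 in the 7 and state 7 in the pair.
Cd38: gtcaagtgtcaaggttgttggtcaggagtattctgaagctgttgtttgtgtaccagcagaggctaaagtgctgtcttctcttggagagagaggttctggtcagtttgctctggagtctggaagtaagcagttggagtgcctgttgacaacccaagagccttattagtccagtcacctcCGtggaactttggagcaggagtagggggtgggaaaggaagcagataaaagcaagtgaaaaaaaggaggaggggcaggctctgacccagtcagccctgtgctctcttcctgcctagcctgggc

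The sequences hold 8 CG dinucleotides in Lrrc37a, 4 in Kcna5, 2 in Mylpf and 1 in Cd38. The median over all 20085 listed starts was 14, and 95.6% of them hold at least 1. The 61 listed starts in a member bin had a median of 9. Within them the 7 starts that went from state 14 to 9 had a median of 2, the 9 from 14 to 13 had a median of 3, and the 10 from state 3 to 1 had a median of 20. CG is its own reverse complement, so both strands hold the same count.

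In the window of 1 kb to each side of the start of Lrrc37a, which spans 11 bins, state 13 filled 11 bins in A/J and 11 in NOD/ShiLtJ, against 0 to 3 in the 7 strains with a median of 0. At Kcna5, state 14 filled 7 bins in A/J, 5 in NOD/ShiLtJ and 0 in each of the 7. At Mylpf, state 9 filled 7 bins in A/J, 11 in NOD/ShiLtJ and 0 to 3 in the 7. The pair and the 7 did not overlap at these starts, which largely follows from the choice. The starts were picked for their member bins, where the rule sets the pair apart from the 7. At Cd38, state 7 filled 9 bins in A/J, 11 in NOD/ShiLtJ and 0 in each of the 7, and state 5 filled 2 and 0 bins against 6 to 11.

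By count of bins, the swaps were dominated by 1 direction. Below, "14 to 13" means that the 7 strains were in state 14 and the pair in state 13. The swap 14 to 13 made up 24447 member bins (57.1%), 13.7 times the reverse swap with 1782. The swap 14 to 9 made up 6181 bins (14.4%) against 19 in reverse, a ratio of 325. The swap 14 to 6 followed with 2136 bins against 211 in reverse. Of all member bins, 79.6% were in state 14 in the 7 strains and 7.99% were in state 14 in the pair. State 14 also had by far the most bins to swap from. The 7 shared it in 7146966 of the 7880706 bins where they agreed. They shared state 13 in 345020 bins, state 6 in 54048 and state 9 in 12740. Members were 0.477% of these bins for state 14, 0.543% for state 13, 1.48% for state 6 and 1.04% for state 9. The counts and ratios above are thus not rates per available bin.

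**Figure D1:**
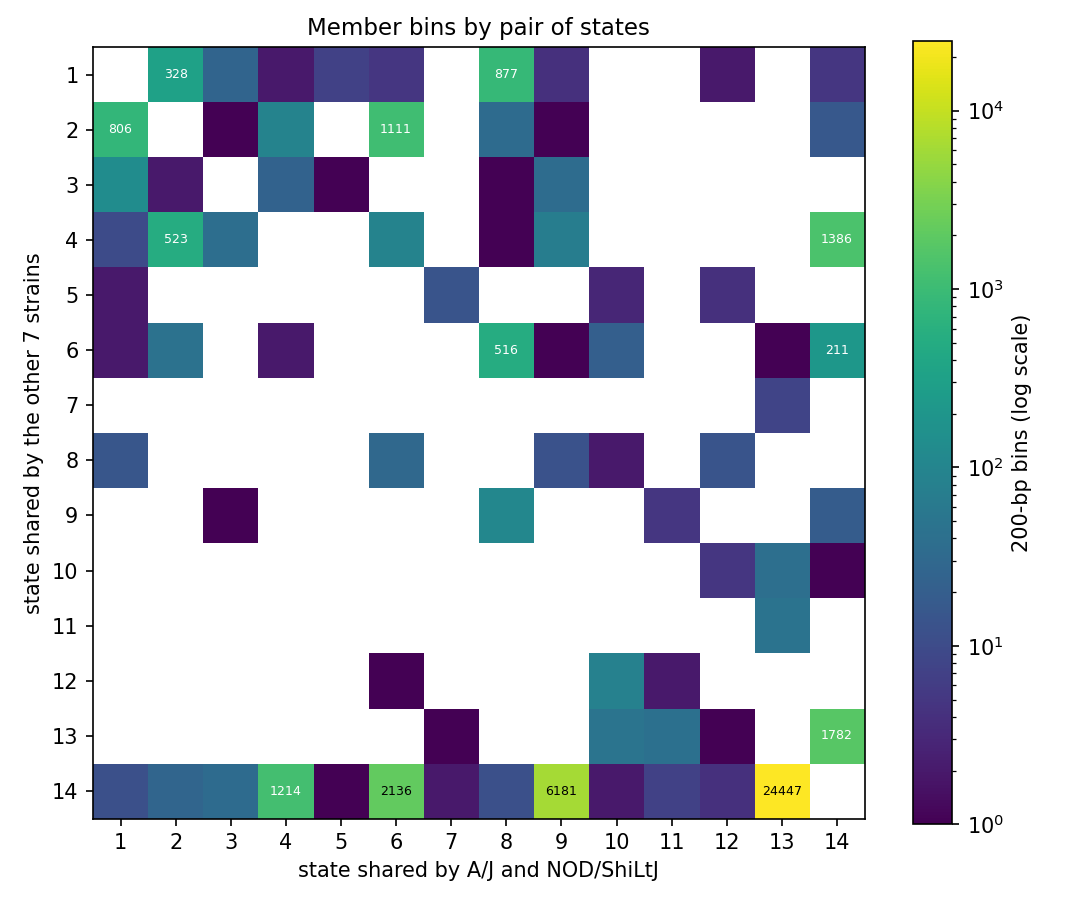
Number of member bins for each combination of the state shared by the other 7 strains (rows) and the state shared by A/J and NOD/ShiLtJ (columns), on a log colour scale, with counts of at least 200 printed and empty cells in white. The bottom row holds most bins, with 24447 in 14 to 13 and 6181 in 14 to 9.

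Other swaps ran between states near genes. The swap 2 to 6 held 1111 bins against 45 in reverse, 1 to 8 held 877 against 15, and 6 to 8 held 516 against 30. The swap 2 to 1 held 806 bins against 328, and 4 to 2 held 523 against 92. States 4 and 14 went both ways, with 1386 bins of 4 to 14 and 1214 of 14 to 4. In sum, the pair had 22668 more member bins in state 13, 6175 more in state 9, 2574 more in state 6 and 1475 more in state 8 than the 7, while state 2 held 925 member bins in the pair and 2061 in the 7, and state 4 held 1334 and 2120. The 76 kinds of swap seen are a part of the 182 that 14 states allow.

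State totals of each strain, which include the member bins and all others, were set beside these counts. State 6 covered 3.042% of autosomal bins in A/J and 2.864% in NOD/ShiLtJ, against 2.242% to 2.543% in the 7 strains. State 8 covered 0.926% and 1.023%, against 0.438% to 0.784%. State 9 covered 0.971% and 1.593%, against 0.272% to 0.924%. State 4 covered 2.297% and 1.895%, against 2.363% to 3.488%, and state 7 covered 0.0209% and 0.0232%, against 0.0263% to 0.0454%. The pair lay outside the range of the 7 for these 5 states of the 14. Without the member bins, which the rule chose, state 9 covered 0.9227% in A/J, below the 0.9258% of NZO/HlLtJ, so the pair then overlapped the 7 on state 9 and stayed outside their range on the other 4. State 2 covered 2.025% and 1.975%, within the 1.931% to 2.685% of the 7. State 13 covered 12.84% and 11.61%, within the 9.398% to 13.1% of the 7, of which WSB/EiJ was the highest.

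**Figure D2:**
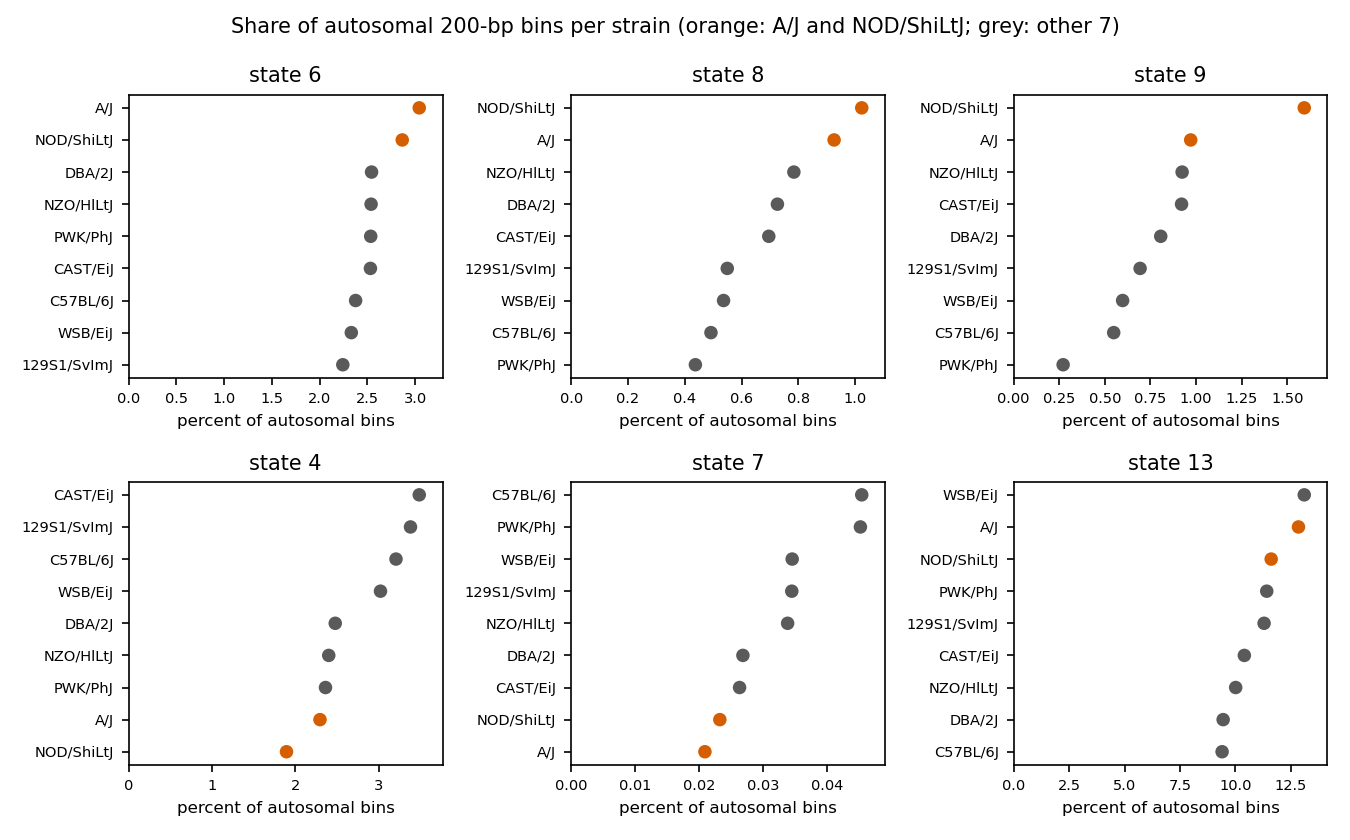
Percent of autosomal 200-bp bins in 6 of the 14 states, 1 point per strain, with A/J and NOD/ShiLtJ in orange and the other 7 strains in grey, sorted within each panel. Member bins are included. The pair lies above the other 7 for states 6, 8 and 9 (for state 9 not without the member bins), below them for states 4 and 7, and among them for state 13.

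Sharing between A/J and NOD/ShiLtJ was counted where the 7 strains agreed, which was in 7880706 autosomal bins (64.0%). A/J departed from the 7 in 212015 of these bins (2.69%) and NOD/ShiLtJ in 231792 (2.94%). NOD/ShiLtJ departed in 21.7% of the bins where A/J did and in 2.42% of those where A/J did not. Both departed in 46091 bins, and in 92.9% of these they carried the same state, which are the members. Bins in which 1 of the pair stood alone against all other 8 strains were more numerous, with 165924 for A/J and 185701 for NOD/ShiLtJ.

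Chromosome X was not used to choose the members, and it was the place for a test. Agreement was scored as Cohen's kappa, a measure of how often a pair of strains had equal states, corrected for the state totals. Kappa over the 855156 bins of chromosome X was 0.804 between A/J and NOD/ShiLtJ, and averaged 0.734 (0.539 to 0.815) between either of them and the 7 strains. The excess of 0.0702 did not pass an exact two-sided permutation test over all 36 ways to take 2 of the 9 strains (p = 0.389, where the smallest possible p is 0.0278), and it was the seventh largest of the 36 excesses. The rule applied to chromosome X gave 605 bins. NOD/ShiLtJ departed from the 7 in 22.2% of the X bins where A/J did and in 0.347% of those where A/J did not. These 2 shares are a description with no test.

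Of the 36 pairs of strains put through the same rule, A/J with NOD/ShiLtJ gave the fourth largest count. CAST/EiJ with PWK/PhJ gave 115177 bins, NOD/ShiLtJ with PWK/PhJ gave 61682 and A/J with WSB/EiJ gave 52353. The swap 14 to 13 led in all 4, with 57.1% here and 37.9% to 84.6% in the other 3. The swap 14 to 9 made up 14.4% here, against 0.0669%, 0.0324% and 0.0516% in those 3 pairs. The pairs with the next largest shares of 14 to 9 were CAST/EiJ with NOD/ShiLtJ at 12.4% and NOD/ShiLtJ with NZO/HlLtJ at 12.1%, both of which include NOD/ShiLtJ, the strain with most state 9.

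The threshold of the rule is that all 7 strains agree. Just outside it lie 90118 bins in which 6 of the 7 agreed and the seventh departed. In 92.7% of these the seventh strain carried the state of the pair, which makes them bins of 3 strains against 6. The departing strain was WSB/EiJ in 17319 bins, CAST/EiJ in 15242, PWK/PhJ in 13915, 129S1/SvImJ in 13564, NZO/HlLtJ in 12041, DBA/2J in 9653 and C57BL/6J in 8384. Bins in which 1 strain joined the pair thus numbered 83519, against the 42806 members.

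Member regions were short. Their median length was 400 bp, 49.4% were a single bin, 2176 (11.7%) reached 1 kb and the longest was 7000 bp. In 12.4% of regions none of the 7 strains had the state of the pair within 1 kb, so that the pair's state stood alone there. In 1.63% the region was a shifted border, where the 7 carried the pair's state in the adjacent bin. Agreement around the members depended on distance. At 200 bp from a member, marked bins (outside state 14 in at least 1 strain) had the same state in A/J and NOD/ShiLtJ in 54.68% of cases, and in either of them and the 7 in 37.98%. At 5 kb the values were 66.45% and 63.5%, against 68.29% and 65.48% over all autosomal marked bins. Agreement among the 7 strains themselves averaged 78.56% at 200 bp, 66.64% at 5 kb and 64.76% over all. At 200 bp the pair was less alike than the 7 were, and at 5 kb about as alike. The values at 200 bp largely follow from the choice. Each such bin lies beside a bin in which the rule made all 7 agree. Bins where the pair agreed against all 7 were left out as members.

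The kinds of swap lay in different places relative to genes. Of the 14 to 13 bins, 63.6% were farther than 10 kb from any protein-coding gene, against 50.4% of all autosomal bins. Of the 14 to 9 bins, 2.88% were that far, 62.3% were in gene bodies beyond the start windows and 32.2% were outside genes but within 10 kb. Among 14 to 9 bins outside bodies and within 10 kb of a gene of known strand, 1341 lay before the start and 401 past the end of the nearest gene. The share past the end was 23%, beside 13.4% for bins of state 9 in all 9 strains, with 433 past the end and 2796 before the start. The swap 1 to 8 had 22.5% of its bins in start windows and 65.5% in the rest of gene bodies, and 6 to 8 had 93.4% in bodies.

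**Figure D3:**
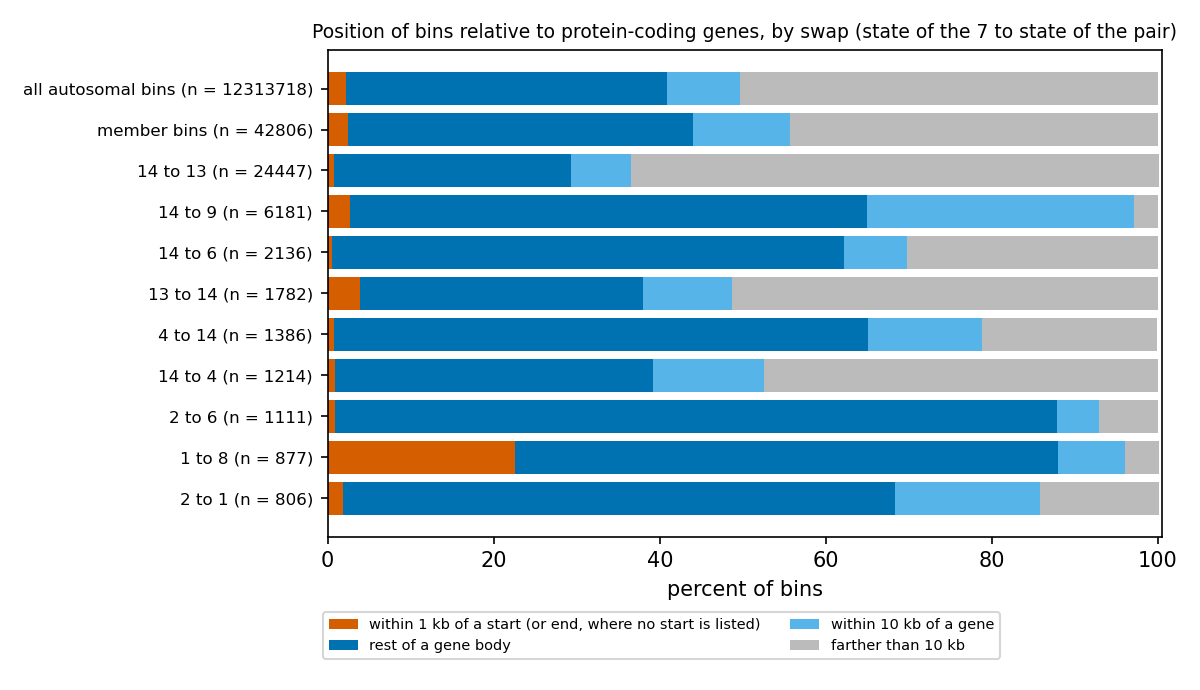
Percent of bins, by kind of swap, that lie within 1 kb of a start of a protein-coding gene (or of an end where no start is listed), in the rest of a gene body, within 10 kb of a gene, or farther away. Of 14 to 13 bins 63.6% and of 14 to 9 bins 2.88% lie farther than 10 kb, against 50.4% of all autosomal bins, while 13 to 14 at 51.3% is near that share.

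The members were spread over all 19 autosomes, from 0.288% of bins on chromosome 7 to 0.468% on chromosome 19, and they were denser in some places. In windows of 1 Mb the median was 14 member bins, 217 of 2473 windows had 0 and 15 windows had at least 100. The 124 fullest windows, the top 5 percent, held 20.6% of the members. The fullest was chr16:37000001-38000000 with 206 member bins, 198 of them 14 to 13. The next were chr15:4000001-5000000 with 198 bins, all 14 to 13, and chr17:4000001-5000000 with 198 bins, 194 of them 14 to 13, in no protein-coding gene. In chr15:4000001-5000000, marked bins outside the members had the same state in A/J and NOD/ShiLtJ in 62.65% of cases and in the pair and the 7 in 47.86%. In chr17:4000001-5000000 the values were 51.64% and 56.85%, the opposite order. Among the 7 strains themselves the share was 62.71% in the chromosome 15 window and 70.24% in the chromosome 17 window.

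**Figure D4:**
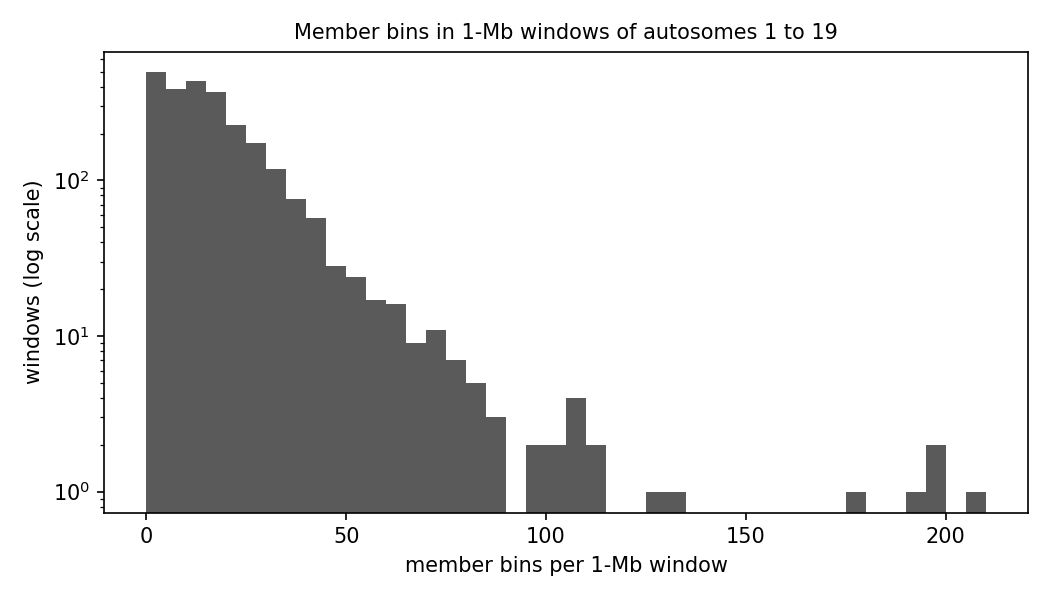
Histogram of the number of member bins in each of the 2473 windows of 1 Mb on autosomes 1 to 19, with the number of windows on a log scale. The median window has 14 member bins and 15 windows reach 100, with 206 in the fullest.

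Genes were placed on the members next. Of 20665 autosomal protein-coding genes, 5079 (24.6%) had a member bin in the body. A longer gene has more bins and so more chances to hold one. Within 1 kb of a start, or of either end for the 4208 genes with no listed start, 719 genes (3.48%) had a member bin. Over the 16457 genes with a listed start alone this was 517 (3.14%), and in 59 of them (0.359%) the start bin itself was a member. The leading swap in the start windows was 1 to 8 in 195 genes and 3 to 1 in 109 genes, followed by 14 to 13 in 82 and 14 to 9 in 72.

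The genes with most member bins over the body and 1 kb to each side mostly carried the swap 14 to 13. Stxbp5l, which encodes a syntaxin-binding protein (chr16:37107075-37385015), had 175 member bins of 1401, of which 174 were 14 to 13. State 13 filled 361 of its bins in A/J and 382 in NOD/ShiLtJ, against 4 to 79 in the 7 strains with a median of 63. The pair lay far above the highest of the 7. Dlg2, a scaffold protein of synapses (chr7:90476188-92449246), had 168 member bins in a body of 9877 bins. State 13 filled 3216 and 3041 of them in A/J and NOD/ShiLtJ, against 1469 to 2880 in the 7, so the groups lay next to each other. Nrg1, a ligand of ErbB receptors (chr8:31807452-32891609), had 88 member bins, with state 13 in 2040 and 2094 bins against 1226 to 1780. State totals of genes, here and below, include the member bins, where the rule sets the pair apart. A margin over the 7 that is smaller than the number of member bins rests on those bins. This was so for A/J in C6, Uroc1, Pigr and Trim7, and for NOD/ShiLtJ in Dlg2, Uroc1, Ift74 and Rspo3.

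Member bins were denser in some shorter genes. Msr1, a scavenger receptor of macrophages (chr8:39543232-39642750), had 48 member bins of 508, all 14 to 13. State 13 filled 127 of its bins in A/J and 137 in NOD/ShiLtJ, against 4 to 24 in the 7. Cyp3a57, a cytochrome P450 of the Cyp3a family (chr5:145345149-145390926), had 41 of 240, all 14 to 13. State 13 filled 54 bins in A/J and 126 in NOD/ShiLtJ, against 0 to 9 in the 7, and the pair differed between themselves. Cyp3a genes are near copies of each other, so reads may be shared among them and this value is uncertain. C6, a component of the complement attack complex, had 31 member bins, all 14 to 13, with state 13 in 95 of 396 bins in A/J and 151 in NOD/ShiLtJ, against 0 to 78 in the 7. Slc8a1, a sodium-calcium exchanger, had 58 member bins, all 14 to 13, and state 13 filled 818 and 785 bins against 280 to 687.

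Other genes with most member bins were Magi2 (77 bins), Zfpm2 (69), Eml6 (66), Lsamp and Tenm3 (57 each), Thsd7a (55), Mbnl2 (46), Kcnma1 (43), Frmd4a, Hecw1, Parp8 and Robo1 (42 each) and Col14a1 (41). Of all 20 genes in this group, 18 had 14 to 13 as the leading swap. The exceptions were Lsamp, a neural adhesion molecule, with 32 bins of 13 to 14, and Mbnl2, a splicing regulator, with 16 bins of 4 to 14. In Mbnl2, state 14 filled 443 of 791 bins in A/J and 387 in NOD/ShiLtJ, against 112 to 295 in the 7. State 4 filled 153 and 108, against 147 to 249, which overlaps the 7.

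The longest member regions, joined over gaps of up to 1 kb, were also 14 to 13 in 19 of 20 cases. The longest was chr4:96821201-96828800, 34.4 kb from Gm12695, with 36 member bins. Stxbp5l held 3 of the 20, at chr16:37173801-37180800, chr16:37342201-37348800 and chr16:37367201-37372200. Others lay in Robo1, an axon guidance receptor, in Sorl1, a sorting receptor, in Adamts3, a metalloproteinase, and in C6 (chr15:4776601-4781200). Regions between genes lay nearest to Tprg, Itgb8, Creb5, Cdh2, Prr30, Arid1b, Hsfy2, Ch25h and Thrb. The exception was a region of 4600 bp in Zfp536, a zinc finger repressor, at chr7:37340201-37344800, with 21 bins of 13 to 14.

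Member bins in genes of liver metabolism often held another swap, in which state 4 in the 7 strains was state 14 in the pair. Of the 87 genes of lipid and bile acid metabolism, 21 (24.1%) had a member bin in the body, beside 24.6% of all protein-coding genes, and 45.1% of their 113 member bins were 4 to 14. Of the 71 genes of carbohydrate and amino acid metabolism, 25 (35.2%) had one, and 41.2% of their 85 member bins were 4 to 14. Over the bodies of all protein-coding genes, 4 to 14 made up 4.88% of the member bins. Body bins that the 7 shared in state 4 were not counted by list, so these shares are not rates per available bin. Counted by bins, members were 0.688% of body bins in the first list and 0.475% in the second, beside 0.374% over all protein-coding bodies. The median number of member bins per gene was 0 in both lists, as it was over all genes. The 4 to 14 bins lay in 9 genes of the first list and 6 of the second, so a few genes hold most of them. The genes described in the next paragraph were picked from these lists after their values were seen.

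Acly makes cytosolic acetyl-CoA for fatty acid synthesis (chr11:100476352-100528000). In its body and 1 kb to each side, 269 bins in all, state 14 filled 100 bins in A/J and 94 in NOD/ShiLtJ, against 14 to 63 in the 7 strains, and state 4 filled 49 and 51 against 68 to 127. The pair lay outside the range of the 7 on both states, and 13 of its 18 member bins were 4 to 14. Acaca, the acetyl-CoA carboxylase of the same pathway, had 10 of 11 member bins 4 to 14, but its totals overlapped, with state 14 in 800 and 887 bins against 699 to 837. Gpam, which starts triglyceride synthesis, had 11 member bins, all 4 to 14, with state 14 in 60 and 73 bins against 6 to 76, where CAST/EiJ at 76 was above both of the pair. Elovl6, a fatty acid elongase, had state 14 in 112 and 136 bins against 18 to 59, above all 7, with 4 bins of 4 to 14 among 8 members.

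Abcg1, a sterol transporter, had 9 member bins, all 4 to 14, with state 14 in 243 and 255 bins against 203 to 226. Uroc1, the urocanase of histidine breakdown, had 14 member bins, all 4 to 14, in 1 stretch at chr6:90361201-90364400. State 14 filled 36 and 46 of its 167 bins, against 0 to 34 in the 7. Gpt2, an alanine aminotransferase, had 7 member bins of 4 to 14, with state 14 in 53 and 29 bins against 0 to 16. Gldc, the glycine decarboxylase, had 6, with state 14 in 42 and 44 bins against 0 to 45, which overlaps the 7. On state 4 the pair overlapped the 7 in Abcg1, Uroc1, Gpt2 and Gldc alike. State 4 filled 34 and 23 bins against 24 to 73 in Abcg1, and 71 and 66 against 61 to 107 in Uroc1. It filled 29 and 48 against 47 to 89 in Gpt2, and 102 and 100 against 100 to 143 in Gldc. Pigr, which carries IgA across epithelia and is on no list, had 15 bins of 4 to 14 in the joined region chr1:130846201-130850200, with state 14 in 27 and 35 bins against 0 to 15.

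Not all metabolic genes went this way. Abca1, which exports cholesterol, had 7 of its 14 member bins in the opposite swap 14 to 4, and its state 4 totals of 80 and 108 bins lay within the 70 to 156 of the 7. Lipc, the hepatic lipase, had 10 of 13 member bins 2 to 1, with state 1 in 130 and 150 bins against 81 to 166. Cps1, the first enzyme of the urea cycle, had 5 member bins, all 2 to 6, with state 6 in 288 and 229 bins against 117 to 253. Insr, the insulin receptor, and Igf1, a growth factor that the liver secretes, each had 4 bins of 2 to 1.

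**Figure D5:**
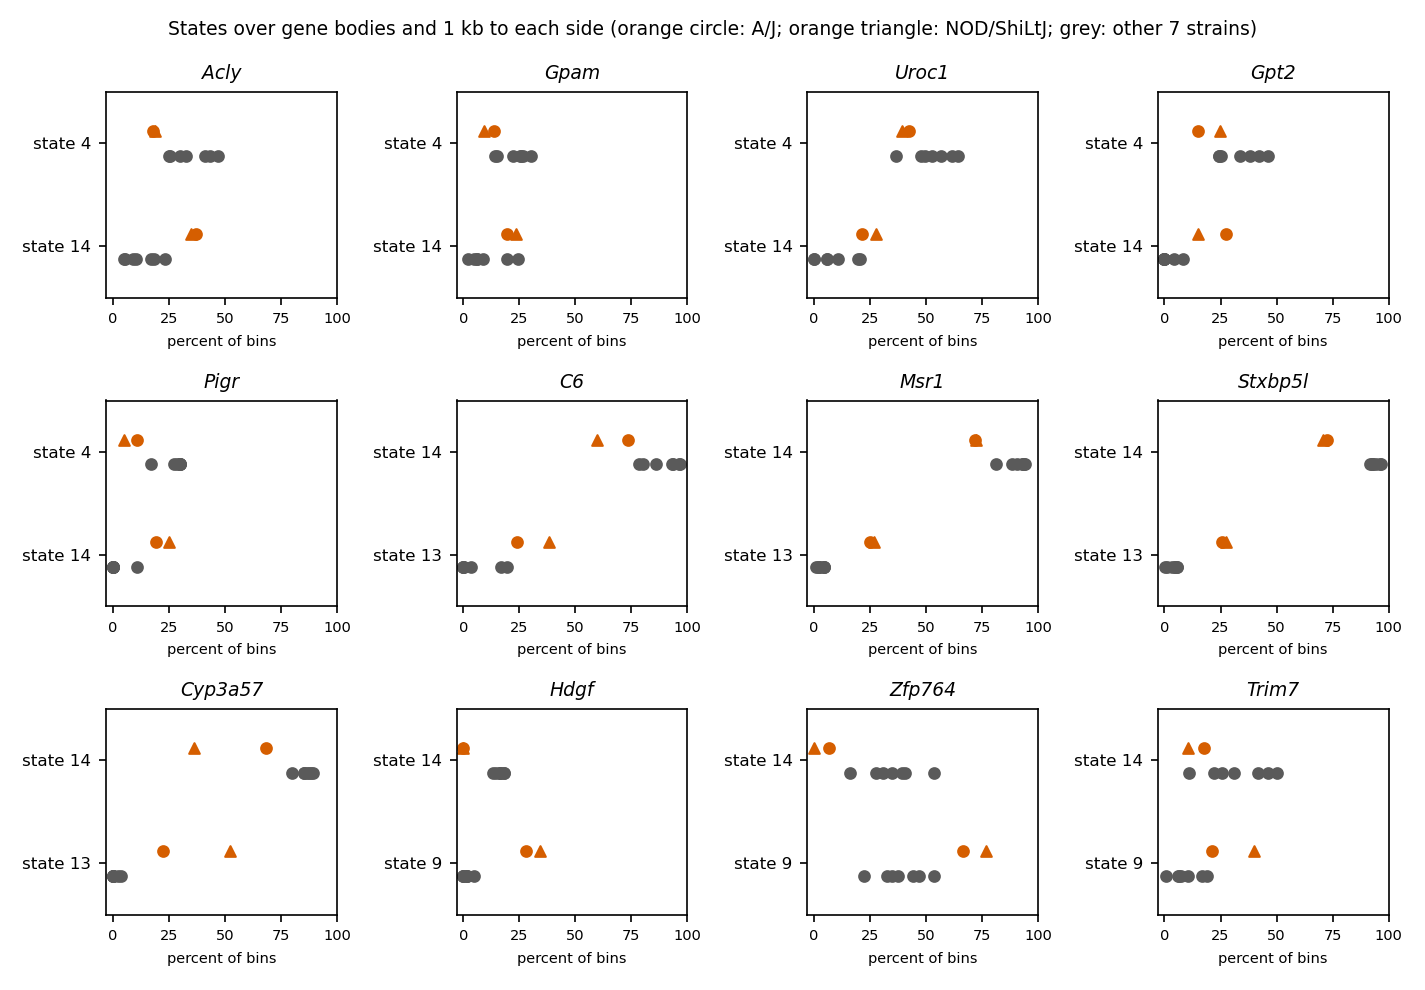
Percent of 200-bp bins over each of 12 gene bodies with 1 kb to each side that carried the state of the 7 strains (upper row of each panel) and the state of the pair (lower row) in the gene's leading swap, 1 point per strain, orange for A/J (circle) and NOD/ShiLtJ (triangle) and grey for the other 7. Member bins are included. In Stxbp5l, Msr1, Acly and Zfp764 the pair then stands apart from the 7 on both states, and in Gpam it does not.

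Of the 57 hepatocyte transcription factors, 21 (36.8%) had a member bin in the body, beside 24.6% of all protein-coding genes. Counted by bins, 0.421% of their body bins were members, beside 0.374% over all protein-coding bodies. Their leading swap was 2 to 6 with 27.7% of 83 bins, against 5.28% over all protein-coding bodies. Body bins that the 7 shared in state 2 were not counted for this list. Thrb, a thyroid hormone receptor, had 23 member bins, 12 of them 2 to 6, with state 6 in 593 of 1915 bins in A/J and 550 in NOD/ShiLtJ, against 307 to 488 in the 7. The pair was above all 7 there. Rora, a nuclear receptor of the circadian clock, had 8 of 11 bins 14 to 4, and its state 4 totals of 584 and 326 bins lay within the 243 to 637 of the 7. Beside the same 24.6%, the share of genes with a member bin was 20.9% for cytochrome P450 genes, 15.7% for plasma proteins, coagulation and complement, and 10.8% for conjugation and transport of drugs. It was 16.2% for developmental regulators and 5.95% for MHC, antigen presentation and interferon genes. The order differed by bins. Beside the same 0.374%, members made up 0.702% of body bins for plasma proteins, where 31 of the 59 member bins lay in C6. The share by bins was 0.185% for cytochrome P450 genes and 0.163% for conjugation and transport. For developmental regulators it was 0.331% and for the MHC list 0.0811%. Over all lists the median gene had 0 member bins.

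The swap 14 to 9 had its own genes. Zfp764, a zinc finger gene (chr7:127399001-127402600 for its joined member region), had 13 member bins, all 14 to 9. State 9 filled 98 of 147 bins in A/J and 113 in NOD/ShiLtJ, against 33 to 79 in the 7 strains, above all of them. Hdgf, the hepatoma-derived growth factor, had 14 member bins with 8 of 14 to 9, and state 9 filled 17 and 21 of 61 bins against 0 to 3. Trim7, a ubiquitin ligase, had 13 bins of 14 to 9, and state 9 filled 29 and 54 bins against 1 to 26. The margin of A/J there is smaller than the 13 member bins, which are part of the total. Ift74, a subunit of intraflagellar transport, had 15 in 1 stretch at chr4:94608401-94611400, and state 9 filled 62 and 58 bins against 10 to 45. These 4 hold the longest joined regions of this swap. On state 14 the pair overlapped the 7 in Trim7, with 24 and 14 bins against 15 to 68. The same held in Ift74, with 319 and 345 bins against 333 to 403.

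At gene starts, 28 genes had 5 or more member bins in the window, with 7 as the most. Olfr1432, an olfactory receptor, had 7, and state 14 filled all 11 bins of its window in both A/J and NOD/ShiLtJ, against 0 to 4 in the 7. Ccdc194 had 5 member bins from state 7 to 13, with state 13 in 10 and 8 bins against 0 to 4. Tmem39a had 6 from 14 to 9 over the windows of 2 starts, with state 9 in 6 and 8 of 22 bins against 0 to 1. Magi2, a scaffold protein of cell junctions, had 5 from 13 to 14, and Olfr161 had 5 of the same kind. Olfr1441 had 5 from 14 to 13. For 10 other genes of the 20 with most such bins no start is listed, so these may lie at the end of the gene: Spink13 with 7, Mettl21e, Panx3 and Spinkl with 6 each, and Btbd9, Exo5, Fndc10, Glipr1l2, Gnb3 and Olfr103 with 5 each.

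Of the 730 autosomal genes on the lists, 19 (2.6%) had a member bin near a start or end, below the 3.48% of all protein-coding genes. Nfe2l2, the master regulator of the antioxidant response, had 2 from state 3 to 1, with state 3 in 6 bins in both A/J and NOD/ShiLtJ against 8 to 9 in the 7. Bhmt, which remethylates homocysteine, had 1 of this kind, with state 3 in 2 and 2 bins against 3 to 5. Cyp4v3, Cyp7b1, Saa4 and Tbx3 also had 1 each from 3 to 1, but state 3 totals of the pair were within the 7 at Cyp7b1, Saa4 and Tbx3. Gsta2, a glutathione transferase, had 2 from state 1 to 8, with state 8 in 4 and 2 bins against 0. Abcb1b, a drug efflux pump, had 1 from state 8 to 12.

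The developmental regulators, which are kept silent in adult liver, swapped mostly between states 10 and 12. Neurog2, a neural transcription factor, had 2 bins from state 12 to 10, and state 12 filled 0 bins in A/J and 4 in NOD/ShiLtJ, against 7 to 10 in the 7. Foxd3 had 1 bin of this kind, with state 10 in 10 and 10 bins against 2 to 7. Gata2 and Irx5 had 2 and 1 of this kind, and Sox21 had 1 from 10 to 12. The state 12 totals of the pair lay within those of the 7 at Gata2 (6 and 8 against 6 to 14) and at Irx5 (5 and 4 against 4 to 9), and at Sox21 they overlapped (9 and 11 against 5 to 10). In the list, 6 of 99 genes (6.06%) had a member bin at a start or end, beside 3.48% of all genes. Igf2, a fetal growth factor, had 2 from 13 to 10, Isg20 had 1 from 3 to 9 and Gbp10 had 1 from 14 to 4.

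The cell identity of the material was checked against marker genes with a listed start. All 4 hepatocyte markers with one carried state 3 in their start windows in every strain. Of 17 endothelial markers, 1 carried state 3 in A/J and 2 in NOD/ShiLtJ, against 3 to 12 in the 7 strains. States 13 and 14 together filled 46.3% and 48.9% of their start windows, against 22.5% to 32.9%. Of 25 Kupffer cell and leukocyte markers, 0 carried state 3 in A/J and NOD/ShiLtJ, against 1 to 2 in the 7. Of 22 stellate and bile duct markers, 3 carried it in each of the pair, against 3 to 5. Fewer cells of a type and less of a mark per cell cannot be told apart in such material, and the part of other cell types in the members was not tested.

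Beside this stand the members in the marker genes themselves. Of 30 endothelial markers, 11 (36.7%) had a member bin in the body, beside 24.6% of all protein-coding genes. Counted by bins, the shares were close, with 0.399% of their body bins beside 0.374% over all protein-coding bodies. Of their 32 member bins, 71.9% were 14 to 13, beside 38.2% over all protein-coding bodies. Body bins that the 7 shared in state 14 were not counted for this list. Rspo3, an enhancer of Wnt signalling, had 11 of the 14 to 13 bins and Tek, a receptor tyrosine kinase, had 5. In Rspo3, state 13 filled 310 of 425 bins in A/J and 283 in NOD/ShiLtJ, against 196 to 282 in the 7. Its state 14 totals of 103 and 129 bins overlapped the 123 to 212 of the 7. In Tek, state 13 filled 105 and 102 bins, within the 8 to 142 of the 7. Stab1, a scavenger receptor of liver endothelium, was the marker with a member bin at its start, from state 3 to 4. State 3 filled 0 bins of its start window in A/J and 0 in NOD/ShiLtJ, against 3 to 5 in each of the 7, and state 4 filled all 11 bins in both, against 1 to 8. Beside the same 24.6%, 2 of 34 Kupffer cell and leukocyte markers (5.88%) had a member bin, Adgre1 with 5 of 13 to 14 and Marco with 2. Of 30 stellate and bile duct markers, 4 (13.3%) had one, and Cftr, the chloride channel of bile ducts, had most with 7 of 14 to 13.

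Genes known from the genetics of these strains were looked up. A/J and NOD/ShiLtJ are the albino strains of the 9, and Tyr, which encodes the enzyme of pigment synthesis (chr7:87424771-87493512), had 4 member bins of 345, all 14 to 13. Within 1 Mb to each side, 0.319% of bins were members, beside 0.348% of all autosomal bins. Marked bins of that window had the same state in A/J and NOD/ShiLtJ in 66.11% of cases, and in the pair and the 7 in 67.01%. Dysf, the muscle membrane repair gene that is defective in A/J, had 3 member bins, 2 of 11 to 13 and 1 of 12 to 10, and its start bin was one of them. Vav3, a signalling protein of lymphocytes, had 20, of which 16 were 14 to 13 and 4 were 13 to 14. Of the 22 genes in this list, 6 (27.3%) had a member bin in the body, near the 24.6% of all protein-coding genes.

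Of 919 autosomal miRNA hairpins, 1 lay in a member bin. This was Mir6362 (chr16:22605326-22605432, plus strand), in state 14 in the 7 strains and state 13 in the pair. Its mature RNA from RefSeq on GRCm38.p6 is shown with its seed, bases 2 to 8, in capitals.
mmu-miR-6362: gUGGGCAUcuaggcuaguucug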

How the data were processed

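ChIP-seq of 4 histone marks and input was grouped by the strain named in the labels, with 13 libraries per strain. The deposited files hold 1 segmentation per strain, in which column 4 names the state as a category and holds no count or signal. How the states were learned is not given in the sources used here. FastQC 0.11.5, MACS 1.4.2 and mm10 are named in the submitters' processing notes, with no role given. The segmentations have no depth, so no interval for counting error is given, and the spread between strains is the only error available.

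Each segmentation was cut into 200-bp bins, and the rule was applied to autosomes 1 to 19. Genes were taken from RefSeq on GRCm38.p6, the same assembly as mm10. Starts were taken from the RefSeq promoter table, which lists one for 16457 of 20665 autosomal protein-coding genes (79.6%). For the other 4208, both gene ends were used. Gene bodies, start windows of 1 kb to each side, regions joined over gaps of up to 1 kb and windows of 1 Mb were then counted.

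The 1 test, of kappa on chromosome X, was an exact two-sided permutation test over strains. The strains have ancestors in common, so their values are not independent. The members, the gene lists and the settings were chosen with earlier results of these data known. Genes were named by a rule: the 20 with most member bins over the body, the 20 with most near a start, listed genes with a member near a start, genes at the 20 longest joined regions, and Tyr. Some genes that the rule picks are not reported here. Names on lists outside this rule were chosen after their values were seen, as were the non-14-to-13 regions. The alternatives were 6 of 7 strains agreeing, each strain left out, states 13 and 14 merged, 1000-bp bins, single bins or shifted borders left out, other windows and gene sets and, for kappa, percent agreement and marked bins. The use of listed starts alone was added after seeing the data. The code, in Python 3.11.15 with numpy 2.4.6, pandas 2.3.3 and matplotlib 3.10.9, was tested on simulated data.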

Additional observations from a re-analysis of the deposited data

Results flagged for a closer look

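Each of 23 sets of values over the 9 strains was searched for a strain far from the others, by the gap to the nearest other strain against the whole range. The sets were the autosomal shares of the 14 states, the number of segments, and the start windows of the 4 marker lists. Chance marks about 1 in 20 such sets. One set had such a strain. States 13 and 14 filled 5.45% of the start windows of 4 hepatocyte markers in PWK/PhJ and 0% in the other 8 strains, A/J and NOD/ShiLtJ included. PWK/PhJ is in the group of 7.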

How the results depend on the processing

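Depth is unknown, so its effect on any segmentation could not be examined, and each strain is 1 value. The excess of kappa on chromosome X stayed above 0 and short of the threshold with percent agreement (2.15 percentage points, p = 0.5, exact permutation), in marked bins (0.112, p = 0.278), with states 13 and 14 merged (0.059, p = 0.0833) and with each of the 7 strains left out (0.0409 to 0.0805, with 28 ways). No paired analysis was possible because 1 segmentation merges all mice of a strain and carries no replicate number. When 6 of the 7 strains had to agree, there were 132924 member bins, 53917 regions, 2205 genes at starts and 9532 in bodies, since the rule is looser. Leaving out each strain gave 51190 to 231792 bins, 22089 to 78728 regions, 860 to 3389 genes at starts and 5669 to 11613 in bodies. The highest values leave out A/J (231792, 78728, 3389 and 11613), and without NOD/ShiLtJ they were 212015, 73892, 2850 and 9977, since the rule then asks for 1 strain alone against the 7. Without any 1 of the 7 the bins were at most 60125. Merging states 13 and 14 left 16957 bins and 9499 regions. Bins of 1000 bp gave 7955 members of 2462736 such bins, a longer unit than 200 bp, so this count is not on the scale of the others. They gave 6852 regions, 222 genes at starts and 2262 in bodies. Without single bins there were 9406 regions, 214 genes at starts and 2708 in bodies. Starts with 5 kb windows gave 3991 genes, and genes of all kinds gave 1386. The remaining counts, the listed starts alone (517 genes) and shifted borders left out among them, were within 1.5 times the reported ones.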

Other observations

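In the large receptor families of the nose, few genes had a member bin. The shares of genes given here depend on gene length, and shares by bins were not counted for these families. Olfr1432, for one, spans 16 bins with 1 kb to each side, so such a short gene has few chances to hold a member. Of 1104 olfactory receptor genes, 18 (1.63%) had a member bin in the body, and of 354 vomeronasal receptor genes 14 (3.95%) had one, beside 24.6% of all protein-coding genes. Of 391 zinc finger (Zfp) genes, 112 (28.6%) had one, and of 362 solute carriers (Slc) 99 (27.3%). The 22 major urinary protein genes, a cluster of liver-secreted pheromone carriers, had 0.

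The rate at which a state shared by the 7 strains was another state in the pair differed between states. It was 18.4% of 255 bins for state 11, 8.79% of 91 bins for state 7, 8.52% of 270 bins for state 5 and 4.8% of 1812 bins for state 12. It was 3.93% of 53998 bins for state 4 and 3.44% of 59997 bins for state 2, and 0.477% of 7146966 bins for state 14. The next lowest were state 8 with 0.498% of 14874 bins and state 13 with 0.543% of 345020 bins. State 14 thus supplied 79.6% of the members at the lowest rate of the 14 states.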
